A study of Xenopus tropicalis with 9 samples.

Results

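The lung of an adult female western clawed frog (Xenopus tropicalis) was compared with 3 other adult tissues of the same species, namely male heart, female intestine and female GI tract (gastrointestinal tract). These are 4 of the 9 mRNA sequencing libraries of the series, chosen by the tissue and sex in their labels. The other 5 libraries are female ovary, female heart, female head, male head and male testes. Every tissue and sex has 1 library, and no strain, treatment or exact age is given beyond adult. The sources used here do not say whether the samples came from separate animals or pools. No difference between tissues therefore has a replicate check, and everything below describes these libraries with no test. A gene was set aside if its ovary level reached 1 TPM and was 4 times its intestine level or more (TPM, the deposited abundance unit, scales reads for transcript length and library size). This removed 3590 of 30330 genes and left 26740, of which 8900 reached 10 TPM in at least 1 of the 4 libraries and form the base of every share below. At the edge of the rule, rtraf (121.71 TPM in ovary, 30.34 TPM in intestine) was set aside and adss (135.96 and 34.07 TPM) was kept. Gene lists for cell types and pathways were also followed, and their members named beyond the 5 most abundant in lung were picked after their values had been seen.

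The frog lung is a simple air sac whose inner wall is folded into septa. Its lining secretes surfactant, a film of lipids and small hydrophobic proteins that keeps the wet surface from collapsing, and it takes up salt and water. Beneath the lining lies a dense net of blood capillaries, held by contractile cells and elastic fibres that let the sac empty. The lung buds from the embryonic foregut, so its lining shares an origin with that of the gut, and like the heart it is rich in vessels and blood.

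Of the 3 genes used to check the label, sftpc and sftpb, which encode surfactant proteins C and B, were far higher in lung than elsewhere. The sftpc level was 15017 TPM in lung, 45.4 TPM in male heart, 0 TPM in intestine and 67.3 TPM in GI tract. The lung level was 223 times the GI tract level, with a 95% interval of 213.8 to 233.1 for counting error. The sftpb level was 6437 TPM in lung, 10.3 TPM in male heart, 0.07 TPM in intestine and 26.7 TPM in GI tract. The ovary rule itself sets sftpb aside, because ovary held 11.04 TPM against 0.07 TPM in intestine. It is given here as a check of the label only. The third gene, cav1 (caveolin 1, the coat protein of the small membrane pits that are dense in endothelium), was at 1481 TPM in lung, 536 TPM in male heart, 152 TPM in intestine and 111 TPM in GI tract. It marks lung and heart against the gut rather than lung alone.

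Total counts ran from 27628254 in ovary to 35044545 in GI tract, with 30105334 in lung. A gene at about 10 TPM in lung rested on a median of 447 counts, which gives a counting error of about 9.71% either way, so counting error is small beside a 4-fold difference. Such intervals cover counting error only. The yardstick for libraries of 1 tissue is mixed. Among genes reaching 10 TPM in at least 1 of the pair, 351 of 8181 (4.29%) lay 4-fold apart between the female and male heads, and 264 of 5674 (4.65%) between intestine and GI tract. The same share was 34.2% between the female and male hearts. For lung it was 39.9% against male heart, 44.9% against intestine, 46.3% against GI tract and 17.2% against female heart.

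Among the 4 compared tissues, but not in the whole series, the lung library stood apart in its content of ovary-type transcripts. Genes set aside by the ovary rule took 24.85% of the lung's TPM, 24.78% in female heart and 82.02% in ovary. They took 6.741% in male heart, 3.368% in intestine and 4.1% in GI tract. In male testes, female head and male head they took 16.24%, 9.848% and 9.163%. The rule itself fixes the ovary share as high and the intestine share as low, so nothing is read from those. By counts the lung share was 20.9%, with a 95% Wilson interval of 20.887% to 20.916%. Lung and female heart thus carried similar shares, both above the male heart share. Of 33 oocyte genes found in the table, 28 were set aside, and all 28 were at least 4-fold higher in lung than in all 3 others. Among all 3590 genes set aside, 1445 met the same rule. Because the ovary rule selects genes low in intestine, part of that call is fixed by it. The cyclin gene ccnb1, for example, was at 1534 TPM in lung, 2810 TPM in female heart and 2894 TPM in ovary, but at 3.19, 0.13 and 49.5 TPM in male heart, intestine and GI tract. The egg coat gene zp4 was at 955 TPM in lung, 1366 TPM in female heart, 72.8 TPM in ovary and at most 26.6 TPM in the 3 others.

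The rule did not remove all genes of that kind. Of the 5 other oocyte genes, 4 were in the base, and all 4 were at least 4-fold higher in lung than in all 3 others. The share over all genes of the base was 17.4%. The level of wee2, an oocyte kinase that holds cell division, was 241 TPM in lung and 481 TPM in female heart but 0.85 TPM in ovary, so it was kept. The spindle factor gene tpx2 (187 TPM in lung, 347 TPM in female heart, 0.68 TPM in ovary) was kept in the same way. For that reason some counts below are also given for genes at least 4 times their female heart level, a condition added after the levels had been seen. Counts given without that condition can hold genes that fail it. The origin of the oocyte-type transcripts in lung was not tested. In bulk tissue, fewer cells of a type and less RNA per cell cannot be told apart.

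**Figure D1:**
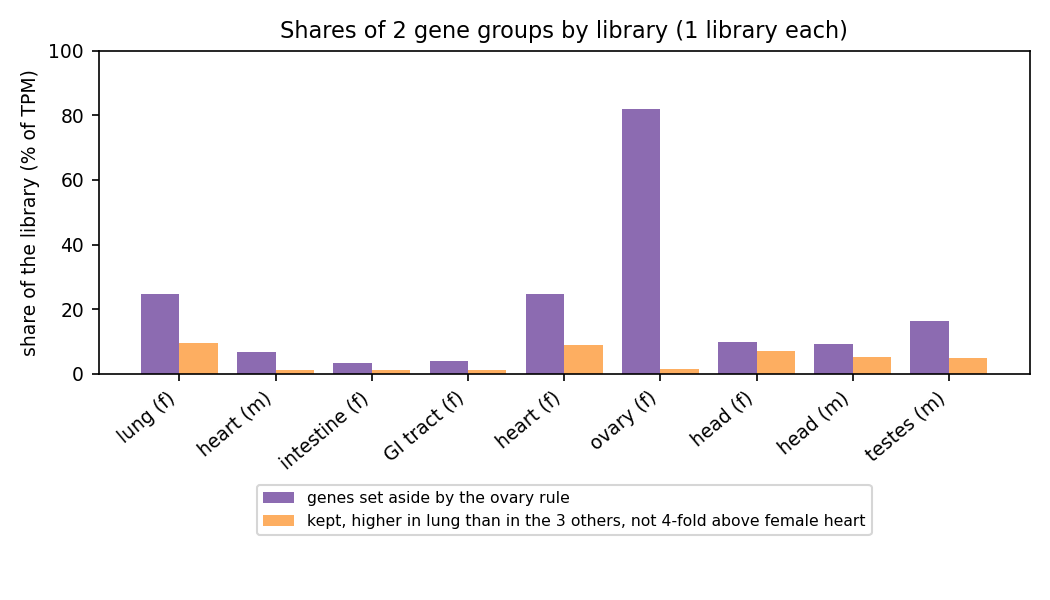
Share of each library's TPM (y axis, %) taken by the genes set aside by the ovary rule (purple) and by kept genes that were higher in lung than in male heart, intestine and GI tract but not 4-fold above female heart (orange), for the 9 libraries on the x axis (f, female; m, male; 1 library each, no error bars). Lung and female heart have nearly equal purple bars, 24.85% and 24.78%. Their orange bars are 9.604% and 8.909%, but the orange genes were chosen by these same levels, so nothing is read from that likeness.

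By the 4-fold rule with a minimum of 10 TPM on the higher side, 1547 of 8900 genes (17.4%) were higher in lung than in all 3 other tissues. Only 30 genes (0.337%) were lower in lung than in all 3. Of the 1547, 221 (2.48% of the 8900) were also at least 4 times their female heart level. The other 1326 were not, and 1038 of those 1326 were at least 4-fold higher in female heart than in male heart. In 211 of the 1547 the female heart level was at or above the lung level. The 1326 genes took 9.604% of the lung's TPM, 8.909% of the female heart's, and between 1.134% and 1.257% in male heart, intestine and GI tract. The 221 genes took 4.621% of the lung's TPM and 0.114% of the female heart's. Both sets were chosen by these same levels, so nothing is read from these shares.

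Against single tissues, 2601 genes (29.2%) were higher and 522 (5.87%) lower in lung than in male heart. Against intestine 2868 (32.2%) were higher and 838 (9.42%) lower, and against GI tract 2933 (33%) were higher and 879 (9.88%) lower. This excess of higher calls depends on the scaling. The 20 most abundant genes took 39.83% of the male heart's TPM, 32.3% of the intestine's and 31.75% of the GI tract's but 16.61% of the lung's, and the median gene of the base was 1.27, 1.34 and 1.39 log2 units higher in lung than in each in turn. After scaling the counts by TMM (trimmed mean of M-values, which takes most genes as equal), those medians were 0.37, 0.13 and 0.12. The calls were then 1311 higher and 796 lower than in male heart, 1016 and 1359 against intestine, and 831 and 1363 against GI tract. The share of higher calls went from 83.3% to 62.2%, from 77.4% to 42.8% and from 76.9% to 37.9%. Genes higher than in all 3 numbered 421 with TMM scaling, of which 415 were among the 1547, and 96 with the female heart condition, of which 94 were among the 221.

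**Figure D2:**
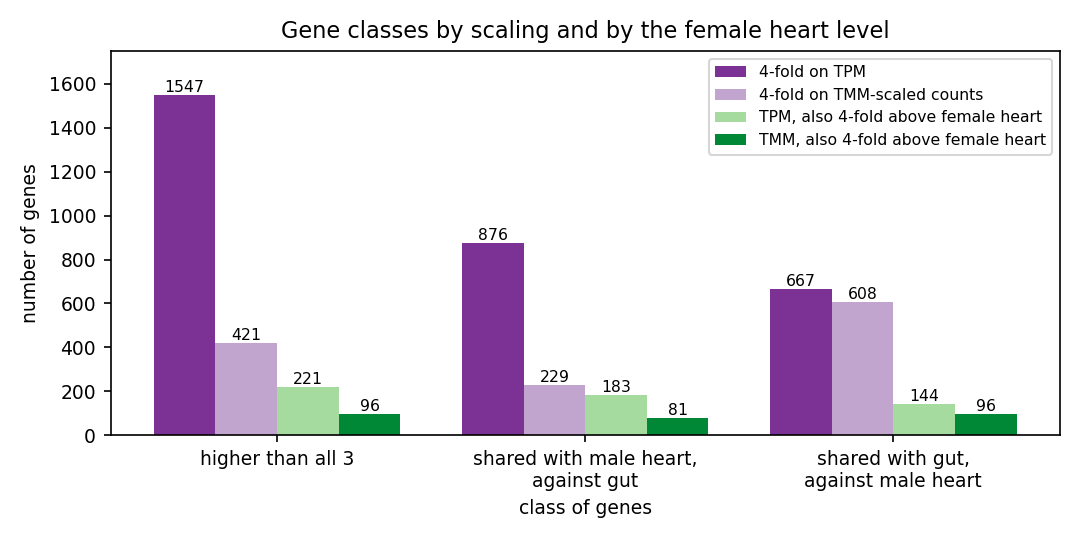
Number of genes (y axis) in 3 classes (x axis) by the 4-fold rule on TPM, on TMM-scaled counts, and on each with the added condition of 4 times the female heart level. The class higher in lung than in all 3 others falls from 1547 to 421, 221 and 96, and the class shared with gut against male heart goes from 667 to 608, 144 and 96, with 242 of the 667 among the 608.

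The 25 named genes with the highest lung level among the 1547 fall into 2 kinds. For 9 of them lung was also at least 4 times female heart, namely sftpc, rgs5, cav2, npc2, slc34a2, aqp1, app, cldn5 and mfap4. The other 16, which were prmt1, eif4g2, ptp4a1, ube2g1, ppp1cc, tubb4b, lmnb1, tmem52, pmel, dctpp1, csnk1e, eif4a1, fscn1, ppp2ca, gldc and kpna2, had female heart levels close to or above lung. The nuclear lamina gene lmnb1 stood at 595 TPM in lung, 6.66 TPM in male heart, 25 TPM in intestine and 34.7 TPM in GI tract, with 754 TPM in female heart. The nuclear import gene kpna2 was at 439 TPM in lung and 1012 TPM in female heart, and at no more than 44.6 TPM in the 3 others. The translation factor genes eif4g2 and eif4a1 and the phosphatase genes ppp1cc and ppp2ca were of this second kind. With TMM scaling their excess over the highest of the 3 others was 2.11-, 2.27-, 1.91- and 2.22-fold, below the rule. Of the 25, only sftpc, rgs5, ptp4a1, lmnb1, pmel, aqp1, dctpp1, fscn1, kpna2 and mfap4 stayed past 4-fold with TMM scaling.

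**Figure D3:**
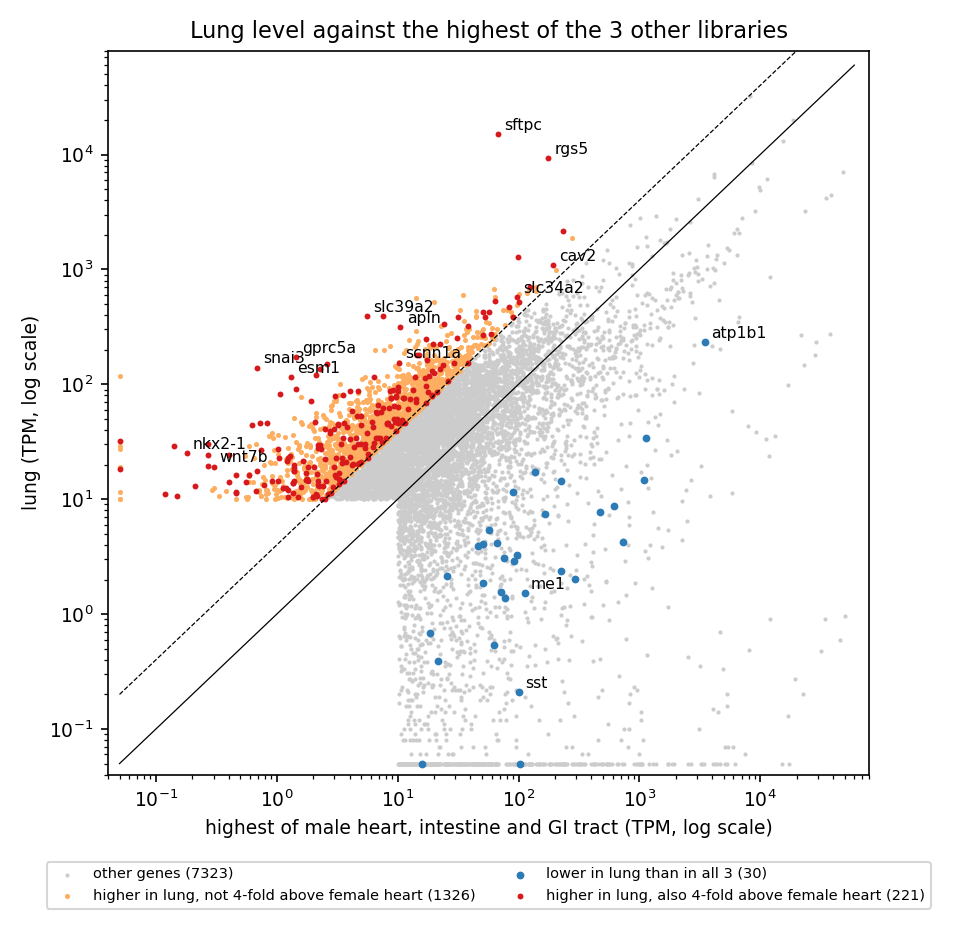
Lung level (y axis, TPM, log scale) against the highest level in male heart, intestine or GI tract (x axis, TPM, log scale) for the 8900 genes, with values under 0.05 drawn at 0.05. The solid line marks equal levels and the dashed line a 4-fold higher lung level. The 221 genes that were also 4-fold above female heart (red) lie among the 1326 that were not (orange), and sftpc and rgs5 stand far above both at 15017 and 9357 TPM.

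Genes of the surfactant-making epithelium did not all follow sftpc. Of 17 found from the list, 1 was set aside (sftpb), 5 stayed under 10 TPM in all 4 tissues and 11 were in the base. Of these 11, 2 were higher in lung than in all 3 others, sftpc and slc34a2, a share near the 17.4% over all genes. With TMM scaling 1 was, where 421 of all 8900 genes were. The phosphate carrier gene slc34a2, typical of surfactant-secreting cells in mammals, was at 571 TPM in lung, 3.83 TPM in male heart, 32.5 TPM in intestine and 97.3 TPM in GI tract. Its 5.87-fold excess over GI tract became 2.43-fold with TMM scaling, while that of sftpc remained at 92.6-fold. The gene lamp3, a marker of the surfactant-storing organelle in mammals, went the other way, with 80.4 TPM in lung, 3.18 TPM in male heart, 917 TPM in intestine and 696 TPM in GI tract. The list's median lung level lay 1.06, 1.22 and 0.64 log2 units above male heart, intestine and GI tract, below the medians over all 8900 genes. Outside the list, the gene sftpa, for surfactant protein A, was also among the 221 but low, with 11.5 TPM in lung. The list's own surfactant protein genes sftpa1 and sftpd were not among those called higher.

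The largest ratios among genes of at least 50 TPM in lung belonged to sftpc, snai3, gprc5a, esm1, slc39a2, lgals4.2, higd1b, rgs5, pmel and ctf1. The level of snai3, a zinc finger transcription factor of the Snail family, was 140 TPM in lung, 0.69 TPM in male heart, 0 TPM in intestine and 0.60 TPM in GI tract. The receptor gene gprc5a, strong in lung epithelium of mammals, was at 173 TPM in lung and at 1.01, 1.17 and 1.45 TPM in male heart, intestine and GI tract. The zinc importer gene slc39a2 was at 393 TPM in lung and at 0.42, 5.60 and 4.42 TPM in those 3. Both snai3 and gprc5a had a lung level over 100 times the highest of the 3 others, at 202-fold and 119-fold. For snai3, which rested on 16 counts in male heart, the counting interval was 124.4 to 354.6. Each of the 10 stayed past 4-fold with TMM scaling. In pmel and ctf1, however, female heart was near lung, with 484 against 565 TPM for pmel and 51.9 against 51.1 TPM for ctf1.

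Of 37 regulators of lung and foregut found in the table, 28 were in the base, and 3 were higher in lung than in all 3 others, a smaller share than the 17.4% over all genes. These were nkx2-1, tbx2 and hoxa4, and all 3 were also 4-fold above female heart. With TMM scaling 2 of the 28 were higher than in all 3 others, where 421 of all 8900 genes were, so the share was then not smaller. The homeobox gene nkx2-1, the earliest known marker of the lung field in the embryonic foregut, was at 25.4 TPM in lung, 0.04 TPM in male heart, 0 TPM in intestine and 0.18 TPM in GI tract. The level of tbx2, a T-box factor of lung mesenchyme, was 57.8 TPM in lung and 6.56, 4.52 and 4.85 TPM in the others. The forkhead gene foxf1, which patterns the mesenchyme of lung and gut, just missed the rule, with 112 TPM in lung, 0.54 TPM in male heart, 19.4 TPM in intestine and 28.1 TPM in GI tract.

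Some foregut regulators were shared between lung and gut, and others were lower in lung. The pioneer factor gene foxa2 was at 43.02 TPM in lung, 29.91 TPM in intestine, 16.9 TPM in GI tract and 0.09 TPM in male heart, and foxa1 at 26.6, 58.6, 52.9 and 0.23 TPM in the same order. By single tissue, 8 of the 28 were lower in lung than in intestine and 8 than in GI tract, where 9.42% and 9.88% of all genes were. With klf5, tbx3 and cebpa, foxa1 and foxa2 made 5 of 28 shared with gut against male heart, where the share over all 8900 genes was 7.49% (667 genes). The Iroquois genes irx1, irx2, irx3 and irx5 made up the 4 shared with male heart against gut, where the share over all genes was 9.84% (876 genes). With TMM scaling 1 gene of the list was shared with male heart and 5 with gut, where 229 and 608 of all 8900 genes were. The homeobox gene cdx2, which specifies intestine, was at 0.04 TPM in lung, 30.0 TPM in intestine and 52.9 TPM in GI tract. The list's median was 1.09, 0.13 and 0.72 log2 units above male heart, intestine and GI tract, and 0.19 above, 1.09 below and 0.62 below them with TMM scaling.

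Among developmental ligands and receptors, 17 of 43 found were in the base, 4 of them higher in lung than in all 3 others, where 17.4% of all genes were. With TMM scaling 2 were, where 421 of all 8900 genes were. The signal gene wnt7b, made by lung epithelium in mouse embryos, was at 19.2 TPM in lung and 0.07, 0.17 and 0.30 TPM in male heart, intestine and GI tract. The hedgehog ligand gene shh was shared with the gut, at 68.1 TPM in lung, 42.5 TPM in intestine and 25.1 TPM in GI tract against 0.34 TPM in male heart. The gene hhip, which encodes a hedgehog-binding inhibitor, was at 46.1 TPM in lung and 1.58, 10.1 and 7.58 TPM in the others. The 4.56-fold excess of hhip over intestine was 2.13-fold with TMM scaling. The growth factor gene fgf10, which draws out the lung buds in mouse, was also shared with the gut, at 30.3 TPM in lung, 8.74 TPM in intestine, 7.88 TPM in GI tract and 0.99 TPM in male heart. The other higher genes, bmp2 (209 TPM in lung) and fgf9 (15.6 TPM), were not 4-fold above female heart, which held 141 and 8.29 TPM. The list's median lay 2.25, 1.80 and 1.64 log2 units above the 3 tissues, and 1.26, 0.59 and 0.35 with TMM scaling.

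Of 21 genes of salt and water transport in the base, 5 were higher in lung than in all 3 others, where 17.4% of all genes were. With TMM scaling 4 were, where 421 of all 8900 genes were. All 3 subunit genes of the epithelial sodium channel, through which the lung lining draws in salt, were higher in lung than in all 3 others. The level of scnn1a was 155 TPM in lung and 0.41, 2.74 and 10.2 TPM in male heart, intestine and GI tract. For scnn1b the levels were 115 TPM against 0.37, 6.31 and 6.32 TPM, and for scnn1g 24.2 TPM against 0.14, 0.08 and 0.40 TPM. They were at or under 0.06 TPM in female heart. With TMM scaling the excess over the highest of the 3 was still 6.30-fold for scnn1a and 7.53-fold for scnn1b. The water channel gene aqp1 was at 526 TPM in lung, 63.3 TPM in male heart, 43.3 TPM in intestine and 32.2 TPM in GI tract, an 8.31-fold excess that was 4.47-fold with TMM scaling. The chloride channel gene ano1 was the fifth of the 21 base genes of this list to be called, but female heart held 37.2 TPM against 51.9 TPM in lung.

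The beta subunit genes of the sodium pump, which works with that channel, differed from each other. The gene atp1b1 was the most abundant of the 30 genes lower in lung than in all 3, with 235 TPM in lung, 1784 TPM in male heart, 2434 TPM in intestine and 3510 TPM in GI tract. Its relative atp1b3 was at 421 TPM in lung and 134, 133 and 54.9 TPM in the others. In lung the beta subunit with the higher level was thus atp1b3, and in the 3 other tissues atp1b1. The bicarbonate carrier gene slc4a4 was low in lung, at 3.96 TPM against 163 and 130 TPM in intestine and GI tract, while the anion carrier gene slc26a9 was shared with gut, at 20.6 TPM in lung against 32.7 and 32.2 TPM. By single tissue, 8 of the 21 were higher than in male heart, 5 higher and 5 lower than in intestine, and 7 higher and 7 lower than in GI tract. The shares of all genes were 29.2% higher than in male heart, 32.2% higher and 9.42% lower than in intestine, and 33% and 9.88% for GI tract. The list's medians were 1.56, 1.01 and 0.36 on TPM and 0.55, -0.20 and -0.91 with TMM scaling.

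Apart from the lists of 4 oocyte and 4 cilia genes, the endothelial list had the highest share on TPM of members above all 3 other tissues in lung. Of 40 found, 33 were in the base. Of these 33, 31 were higher in lung than in intestine, 30 than in GI tract and 16 than in male heart, against 32.2%, 33% and 29.2% of all genes. None was lower than in any of the 3. In all, 15 were higher than in all 3 others, 14 of them also 4-fold above female heart, and another 15 were shared with male heart. The shares of all genes in those 2 classes were 17.4% and 9.84%. The list's median log2 ratio was 1.92 over male heart, 3.44 over intestine and 3.62 over GI tract, against 1.27, 1.34 and 1.39 for all genes. With TMM scaling it was 0.94, 2.19 and 2.36 against 0.37, 0.13 and 0.12. The calls were then 10 higher and 1 lower than male heart, 20 higher than intestine, 22 higher than GI tract and 6 higher than all 3. With that scaling 421 of all 8900 genes were higher than all 3. Against male heart 1311 of all genes were higher and 796 lower, and 1016 and 831 were higher than intestine and GI tract. The salt and water list, with 4 of 21, then had a larger share than the endothelial list.

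Within that list cav2, the partner of cav1, was at 1088 TPM in lung, 193 TPM in male heart, 50.9 TPM in intestine and 51.7 TPM in GI tract. The endothelial tight junction gene cldn5 was at 473 TPM in lung and 48.6, 82.9 and 43.5 TPM in the 3 others. Neither passed 4-fold with TMM scaling, at 3.01 and 2.47. The peptide hormone gene apln, whose receptor guides vessel growth, did, at 312 TPM in lung and 10.6, 4.31 and 4.95 TPM in the 3 others, a 29.6-fold excess that was 15.9-fold with TMM scaling. Its receptor gene aplnr was shared with male heart, at 48.3 TPM in lung and 19.9 TPM there, against 4.38 and 5.65 TPM in intestine and GI tract. The junction gene esam was at 53.1 TPM in lung and no more than 4.57 TPM in the others, and stayed 6.21-fold higher with TMM scaling.

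The general endothelial genes pecam1 and cdh5 were shared with male heart by the rule. The adhesion gene pecam1 was at 64.3 TPM in lung, 17.2 TPM in male heart, 2.20 TPM in intestine and 2.49 TPM in GI tract. The cadherin gene cdh5 was at 56.1 TPM in lung, 16.5 TPM in male heart, 3.67 TPM in intestine and 4.55 TPM in GI tract. For both, the lung level was over 3 times the male heart level, short of the 4-fold rule. The secreted proteoglycan gene esm1, known in mammals from growing vessels, lay outside the list and was more restricted, at 115 TPM in lung and 0.28, 0.78 and 1.3 TPM in the others. Lymphatic lyve1 was the one endothelial gene of the base below 10 TPM in lung, at 3.64 TPM against 13.6 TPM in male heart. The growth factor genes vegfb (80.0 TPM in lung, at most 3.54 TPM in the others) and vegfd (52.6 TPM, at most 5.02 TPM) were chosen after their values were seen.

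Genes of oxygen sensing and vessel tone varied. Of 26 in the base, 4 were higher in lung than in all 3 others, epas1, arnt, ramp3 and npr3, a share near the 17.4% over all genes. All but arnt were also 4-fold above female heart. With TMM scaling 1 gene of the list was higher than in all 3, where 421 of all 8900 genes were. The oxygen-regulated factor gene epas1 was at 389 TPM in lung, 89.2 TPM in male heart, 20.3 TPM in intestine and 17.2 TPM in GI tract, while its relative hif1a was at 276, 196, 103 and 88.8 TPM. With TMM scaling epas1 was 2.24-fold and ramp3 3.33-fold over the highest of the 3 others, below the rule. The gene for angiotensin-converting enzyme, ace, whose product lines lung capillaries in mammals, was low in this lung, at 6.47 TPM against 13.4 TPM in male heart, 1344 TPM in intestine and 2459 TPM in GI tract. The angiotensin receptor gene agtr1 was at 3.13 TPM in lung and 101 TPM in male heart. Medians over the 26 were 0.26, 1.37 and 1.58, and -0.59, 0.16 and 0.28 with TMM scaling. The adrenergic receptor gene adrb1, named after its values were seen, was at 249 TPM in lung and 17.1, 1.93 and 4.61 TPM in the 3 others.

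**Figure D4:**
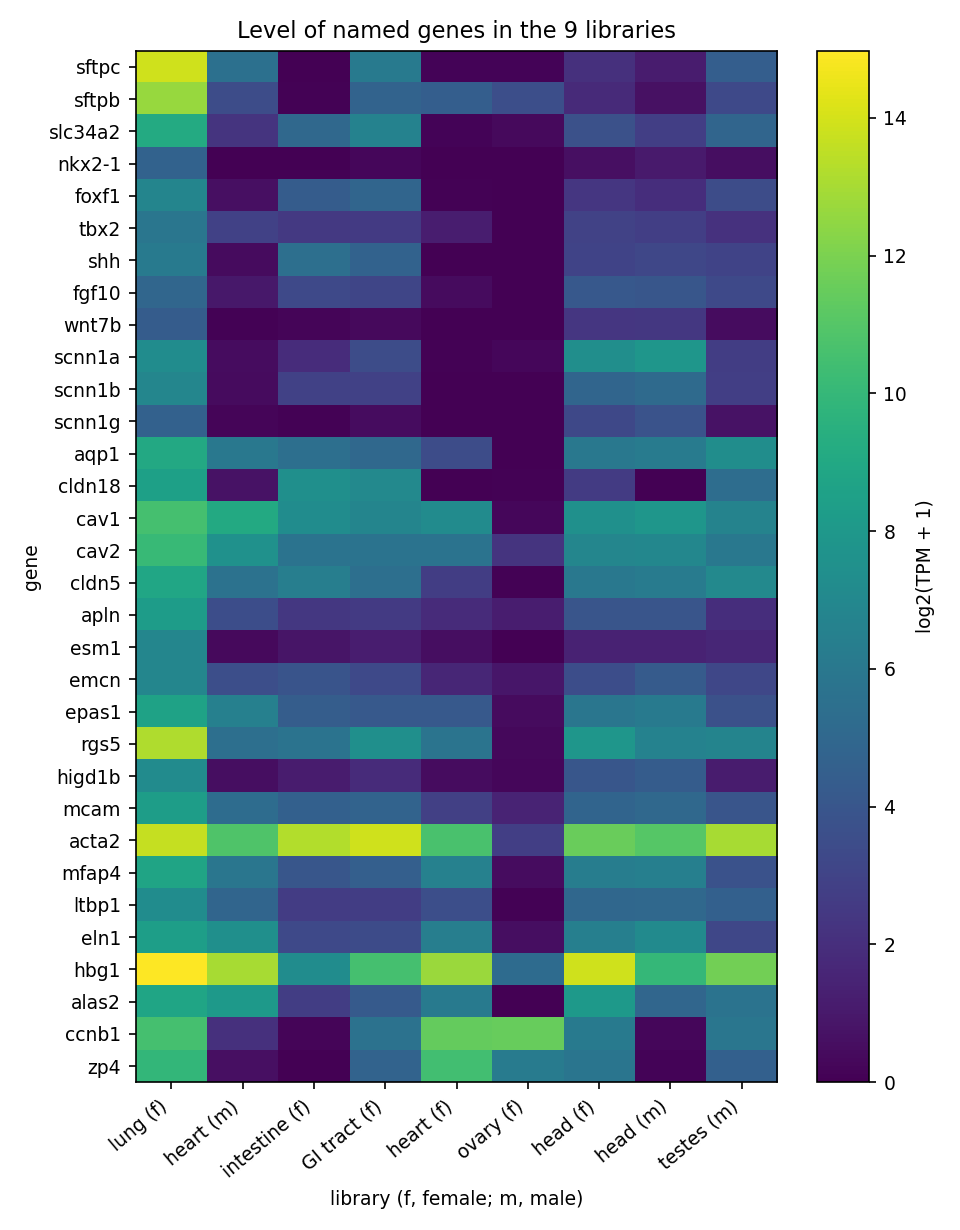
Level of 32 genes (rows) in the 9 libraries (columns; f, female; m, male) as log2(TPM + 1) on the colour scale. Most epithelial, vessel and matrix rows are bright in the lung column, but nkx2-1, wnt7b and scnn1g are low on the scale there too. The rows of cav1 and the blood cell genes hbg1 and alas2 are bright also in male heart, and acta2 and cldn18 also in the gut columns. Those of ccnb1 and zp4 are bright in lung and female heart, and ccnb1 also in ovary. The scnn1a row is higher in both heads than in lung.

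In the list of smooth muscle and pericyte genes, the largest ratio of lung to the highest other tissue was that of rgs5. The gene rgs5, a regulator of G protein signalling typical of pericytes, was the second most abundant gene of the 1547, at 9357 TPM in lung, 43.7 TPM in male heart, 51.9 TPM in intestine and 176 TPM in GI tract. It was 53.3-fold over GI tract, or 21.8-fold with TMM scaling. Another gene typical of pericytes but outside the list, higd1b, was at 151 TPM in lung and 0.49, 1.17 and 2.60 TPM in the others, and mcam, an adhesion gene of vessel walls, at 324 TPM against 38.1, 22.8 and 26.4 TPM. The calponin gene cnn1 was at 427 TPM in lung and 50.8, 43.7 and 19.2 TPM in the others.

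Several smooth muscle genes were at similar levels in lung and gut. The actin gene acta2 was at 13119 TPM in lung, 9548 TPM in intestine and 15450 TPM in GI tract against 1822 TPM in male heart. The smooth muscle myosin gene myh11 was at 245, 463 and 557 TPM in those, against 15.0 TPM in male heart. Of 17 smooth muscle and pericyte genes in the base, 3 were higher than in all 3 others (rgs5, cnn1 and mcam, all with TMM scaling too) and 5 were shared with gut, where the shares over all genes were 17.4% and 7.49%. With TMM scaling 1 was shared with gut, where 608 of all 8900 genes were. With that scaling 421 of all 8900 genes were higher than in all 3 others. On TPM another 5 of the 17 were lower than in male heart, where 5.87% of all genes were. Among them was the tropomyosin gene tpm1, at 857 TPM in lung against 11973 TPM in male heart. Medians over the 17 were 2.09, 0.54 and 0.53, and 1.19, -0.58 and -0.80 with TMM scaling.

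The elastic fibre genes named here were each highest in lung among the 4 tissues, and eln1 was also high in male heart. The elastin gene eln1 was at 335 TPM in lung, 176 TPM in male heart, 8.89 TPM in intestine and 9.65 TPM in GI tract. The microfibril gene mfap4 was at 428 TPM in lung, 57.0 TPM in male heart, 14.9 TPM in intestine and 22.5 TPM in GI tract, a 7.504-fold excess that was 4.02-fold with TMM scaling. Both lay far above the gut, and mfap4 also above the heart. The fibrillin gene fbn1 (38.0 TPM in lung against 5.58, 2.59 and 4.75 TPM) and ltbp1, whose product anchors the growth factor TGF-beta to microfibrils (154 TPM against 29.1, 5.33 and 5.51 TPM), were higher than in all 3 as well. The fourth, tcf21, a factor of lung mesenchyme, was at 68.7 TPM in lung and no more than 17.1 TPM in the others, and 1.67-fold with TMM scaling.

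Of 36 matrix genes in the base, 4 were higher than in all 3 others, below the 17.4% over all genes, and 13 were shared with male heart, above the 9.84% over all genes. By single tissue 18 were higher than in intestine, 19 than in GI tract and 5 than in male heart, where 32.2%, 33% and 29.2% of all genes were. In each comparison 1 was lower, where 9.42%, 9.88% and 5.87% of all genes were. The fibrillar collagen genes differed less, with col1a1 at 487 TPM in lung, 325 TPM in male heart, 119 TPM in intestine and 104 TPM in GI tract. The scar-associated gene postn was low in lung, at 1.15 TPM against 78.0 TPM in male heart. The list's medians were 0.73, 2.08 and 2.13, and -0.16, 0.85 and 0.86 with TMM scaling. With that scaling 1 gene was higher than in all 3, where 421 of all 8900 genes were. Then 6 were shared with male heart, where 229 of all genes were. Higher than in each of intestine and GI tract were 8, where 1016 and 831 of all genes were. Outside the list fn1, which encodes fibronectin, was at 255 TPM in lung and no more than 30.7 TPM in the others, and was named after its values were seen.

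Among the 4 tissues, blood cell genes were shared by lung and male heart. The 24 genes found from the list summed to 38820 TPM in lung and 11645 TPM in male heart. Outside the 4 tissues they summed to 18683 TPM in female head and 7857 TPM in female heart, so the high levels were not particular to lung and male heart. The most abundant was hbg1, a globin gene by its deposited symbol, at 32225 TPM in lung, 8216 TPM in male heart, 156 TPM in intestine and 1509 TPM in GI tract. The haem synthesis gene alas2 was at 442, 269, 5.65 and 18.1 TPM in the same order. On TPM lung was the highest and the gut the lowest for both. With TMM scaling the lung level was 2.14 times the male heart level for hbg1 but 0.88 times for alas2. Of 17 genes of erythrocytes and platelets in the base, 11 were shared with male heart, where 9.84% of all genes were. Higher than in intestine were 12, and 12 were higher than in GI tract, where the shares over all genes were 32.2% and 33%. The 1 gene higher than in all 3, epb41, was not 4-fold above female heart. With TMM scaling 12 were shared with male heart, where 229 of all 8900 genes were. Medians over the 17 blood cell genes were 0.77, 5.83 and 4.55, and -0.13, 4.61 and 3.28 with TMM scaling. Globin genes are near-identical copies whose reads the authors' counting could have divided, so single globin levels are uncertain.

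The class shared with male heart against gut held 876 genes, 183 of them also 4-fold above female heart (2.06%). Its 10 most abundant named genes were hbg1, hba1, sparc, hbg2, cav1, cd59, hba3, inmt, slco2a1 and tubb. The prostaglandin carrier gene slco2a1 was at 904 TPM in lung, 680 TPM in male heart, 24.7 TPM in intestine and 17.9 TPM in GI tract. The methyltransferase gene inmt was at 1112, 870, 155 and 157 TPM. The matrix gene sparc was at 1689 TPM in lung, 1606 TPM in male heart, 223 TPM in intestine and 98.2 TPM in GI tract. With TMM scaling the lung levels of slco2a1, inmt and sparc were 0.71, 0.68 and 0.57 times the male heart level. By that scaling 229 genes met this rule.

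The class shared with gut against male heart held 667 genes, 144 of them also 4-fold above female heart (1.62%). It was led by cytoskeletal genes, acta2, actg1, tmsb4x, crip1 and actb, followed by sat1, krt18, anxa2, cd9 and ddx39a. The cytoplasmic actin gene actg1 was at 8354 TPM in lung, 6589 TPM in intestine, 8594 TPM in GI tract and 1238 TPM in male heart. Actin genes are closely alike in sequence, so their separate levels are uncertain. The tight junction gene cldn18, known in mammals from lung and stomach lining, was at 364 TPM in lung, 176 TPM in intestine, 132 TPM in GI tract and 0.69 TPM in male heart. The keratin gene krt18 was at 900 TPM in lung, 553 TPM in intestine and 867 TPM in GI tract, and 2.64 TPM in male heart, but at 1201 TPM in female heart.

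Of 16 airway secretory and goblet cell genes in the base, 5 were shared with gut, where 7.49% of all genes were. Only cldn4 was higher than in all 3 (31.8 TPM, with 47.3 TPM in female heart), where 17.4% of all genes were. In this list 6 were lower in lung than in intestine and 8 than in GI tract, where 9.42% and 9.88% of all genes were. The mucosal peptide gene tff2 was at 0.10 TPM in lung and 342 and 740 TPM in intestine and GI tract, and the mucin gene muc5ac was at 0 TPM in lung. The antibody carrier gene pigr was shared with gut, at 38.9 TPM in lung, 12.5 TPM in intestine and 50.1 TPM in GI tract against 0.12 TPM in male heart. Medians over the 16 were 2.92, -1.03 and -2.12, and 2.08, -2.25 and -3.39 with TMM scaling. The genes tff1, tff2, muc5ac and spdef were thus at or near 0 in lung, while the keratin and tight junction genes krt18, cldn7 and cldn18 were among its abundant members. Other keratin genes of the list were lower in lung than in gut. The gene krt8 was at 177 TPM in lung, 273 TPM in intestine and 600 TPM in GI tract, and krt19 was at a log2 ratio of -3.08 to GI tract.

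Motile cilia genes were mostly low. Of 35 found, 20 stayed below 10 TPM in all 4 tissues, 11 were set aside and 4 were in the base. Of these 4, 3 were higher in lung than in all 3 others, where 17.4% of all genes were. The gene drc1, for a regulator of the ciliary dynein arms, was at 44.4 TPM in lung and 0.41, 0.35 and 0.62 TPM in the others, and was the one also 4-fold above female heart. The medians of the 4 were 2.69, 3.93 and 3.06, and 1.84, 2.69 and 1.93 with TMM scaling. In the mesothelium list 5 of 14 genes were in the base, with medians of 2.48, 2.71 and 2.01. Of these 5, 2 were higher than in all 3 (tcf21 and bnc1), where 17.4% of all genes were, and 1 of the 2 was also 4-fold above female heart. None was higher than in all 3 with TMM scaling, where 421 of all 8900 genes were. The urothelial and mesothelial gene upk3a, set aside, was at 223 TPM in lung, 265 TPM in female heart and 132 TPM in ovary, and at most 8.57 TPM in the 3 others.

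None of 17 immune cell genes in the base was higher than in all 3 others, where 17.4% of all genes were. Higher than in male heart were 2, and none was higher than in intestine or GI tract, where the shares over all genes were 29.2%, 32.2% and 33%. In turn 4 were lower than in intestine and 1 than in GI tract, where 9.42% and 9.88% of all genes were. With TMM scaling 12 were lower than in intestine and 7 than in GI tract, where 1359 and 1363 of all 8900 genes were. The genes mpo and coro1a were shared with gut, where 7.49% of all genes were. The antigen presentation gene cd74 was at 78.6 TPM in lung, 48.4 TPM in male heart, 812 TPM in intestine and 840 TPM in GI tract. The T cell gene cd3e was at 5.57 TPM in lung, 1.79 TPM in male heart, 18.7 TPM in intestine and 11.9 TPM in GI tract. The list's medians were 1.33, -1.24 and -0.34, and 0.28, -2.45 and -1.68 with TMM scaling. Of 7 genes of neuroendocrine cells and neurons in the base, 4 were lower in lung than in intestine and 3 than in GI tract. The shares over all genes were again 9.42% and 9.88%. The granule gene chga was at 4.81 TPM in lung against 119 and 113 TPM in intestine and GI tract. The medians of that list were 1.46, -2.15 and -1.61, and 0.56, -3.46 and -2.96 with TMM scaling.

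Of the 30 genes lower in lung than in all 3 others, the 10 with the highest minimum level across the 3 others were atp1b1, slc43a2, enpp6, epb41l3, slc43a1, tcea3-like, smim3, me1, gata4 and pmp2. The zinc finger gene gata4, which specifies heart and gut lining, was at 3.10 TPM in lung, 75.4 TPM in male heart, 47.9 TPM in intestine and 42.4 TPM in GI tract. The amino acid carrier gene slc43a2 was at 34.4, 164, 489 and 1139 TPM in that order. The malic enzyme gene me1 was at 1.53, 52.4, 67.8 and 113 TPM. The rule itself makes each lowest in lung among the 4. Female heart, which the rule leaves out, was below lung for slc43a2, slc43a1 and smim3. It held 21.45, 7.30 and 3.80 TPM of these against 34.43, 11.50 and 14.31 TPM in lung. Female heart was less than 4-fold above lung for atp1b1, epb41l3 and pmp2, and past 4-fold for enpp6, tcea3-like, me1 and gata4. The somatostatin gene sst (0.21 TPM in lung against 24.7 to 101 TPM) and the heart and gut homeobox gene nkx2-3 (0.69 TPM against 11.7 to 18.5 TPM) were also among the 30. With TMM scaling 81 genes met this rule.

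Muscle genes set lung apart from heart. All 20 cardiac genes and all 5 skeletal muscle genes in the base were lower in lung than in male heart, with median log2 ratios of -7.80 and -7.10. Of 23 cardiac genes found, 3 stayed below 10 TPM in all 4 tissues. Of 22 skeletal muscle genes found, 14 did and 3 were set aside. Each gene called lower had at least 10 TPM in male heart, which alone admits it to the base. Part of these counts is thus fixed by the filter. The share of all genes lower than in male heart was 5.87%. The myosin light chain gene myl7 was at 180 TPM in lung and 28174 TPM in male heart, and the natriuretic peptide gene nppa at 14.7 and 2649 TPM. Cardiac genes were nonetheless not at 0 in lung. The light chain gene myl7 was at 0.31 TPM in intestine and 1.25 TPM in GI tract, and the most abundant cardiac gene in lung was myl3 at 234 TPM. Of the 20, 10 were higher in lung than in intestine and 11 than in GI tract, where 32.2% and 33% of all genes were. The source of these transcripts in lung was not tested.

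Genes of mitochondrial oxidation were also lower than in heart. Of 33 in the base, 16 were lower in lung than in male heart and none was higher, with a median of -1.96, or 30 lower and a median of -3.23 with TMM scaling. The share of all genes lower than in male heart was 5.87%, or 796 of 8900 with TMM scaling. The ATP synthase gene atp5f1b was at 542 TPM in lung, 4541 TPM in male heart, 1022 TPM in intestine and 836 TPM in GI tract. Against the gut the medians were 0.09 for intestine and -0.08 for GI tract, or -1.13 and -1.42 with TMM scaling. By the rule 2 genes were higher and 1 lower than in intestine, where 32.2% and 9.42% of all genes were.

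Digestive genes set lung apart from the gut. Of 20 intestinal epithelium genes in the base, 18 were lower in lung than in intestine and 19 than in GI tract, with medians of -10.34 and -11.50. All 21 genes of stomach and pancreas were lower in lung than in both, with medians of -11.95 and -12.30, and all 6 liver genes were lower than in GI tract, with a median of -5.87. The shares of all genes lower than in intestine and GI tract were 9.42% and 9.88%. Of 21, 23 and 12 genes found from these 3 lists, 1, 2 and 6 stayed below 10 TPM in all 4 tissues. The liver genes summed to 6.02 TPM in lung and 4.25 TPM in male heart, so none entered the base through those. Each gene called lower had at least 10 TPM in the gut tissue, so part of these counts is fixed by the filter. The chitinase gene chia was at 0.96 TPM in lung, 3.78 TPM in male heart, 36882 TPM in intestine and 50276 TPM in GI tract. The gene lower than in neither, gpa33, a surface protein of gut lining, was at 120 TPM in lung, 44.8 TPM in intestine and 78.6 TPM in GI tract, with 158 TPM in female heart.

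Of 18 stress and immediate early genes, 3 were higher in lung than in all 3 others, a share near the 17.4% over all genes. These were ier2, klf2 and ier3, and none was 4-fold above female heart. With TMM scaling 3 genes of the list were higher than in all 3, where 421 of all 8900 genes were, so the share was then larger. Another 3 genes of the list were set aside, and 2 of them met the same rule, as 1445 of all 3590 set aside did. The gene ier2 was at 386 TPM in lung, 376 TPM in female heart, 44.5 TPM in male heart, 24.0 TPM in intestine and 29.0 TPM in GI tract. The list's medians were 1.13, 1.47 and 1.24, close to those of all genes, and 0.35, 0.26 and -0.03 with TMM scaling. Of 18 antioxidant and detoxification genes, 1 was higher than in all 3, below the 17.4% over all genes. This was the glutathione transferase gene gstp1, at 16.1 TPM in lung and no more than 3.02 TPM in the others. In that list 4 were lower than in intestine and 4 than in GI tract, where 9.42% and 9.88% of all genes were. The peroxiredoxin gene prdx1 was at 101 TPM in lung, 179 TPM in male heart, 1028 TPM in intestine and 1853 TPM in GI tract. That list's medians were 1.47, -0.78 and -0.84, and 0.56, -1.99 and -2.10 with TMM scaling.

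**Figure D5:**
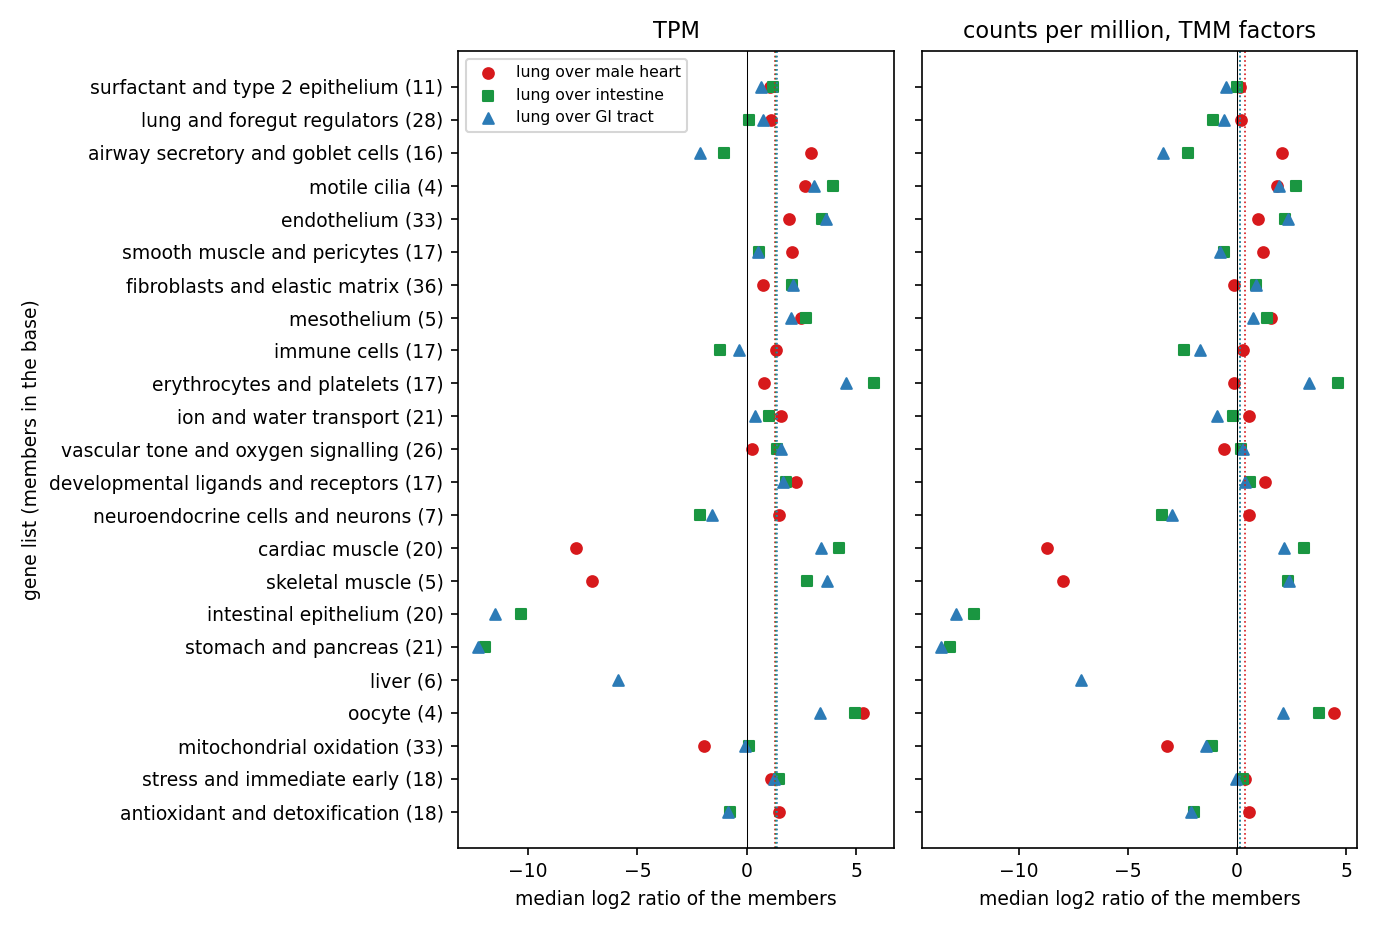
Median log2 ratio of lung over male heart (circles), intestine (squares) and GI tract (triangles) for the members of 23 gene lists in the base (y axis, number of members in brackets), on TPM (left) and on TMM-scaled counts (right). Dotted lines give the same medians over all 8900 genes, and a marker is left out where over 25% of the members were at the floor of 3 counts in both libraries. The endothelial list lies right of the dotted lines in both panels, while the digestive lists lie far left for both gut tissues and the cardiac list for male heart.

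Across 18472 kept genes with at least 1 TPM in any library, the Spearman rho with lung was 0.916 for female heart and 0.833 for male heart. It was 0.754 for GI tract, 0.741 for female head, 0.739 for intestine and 0.738 for ovary. For male head and testes it was 0.712 and 0.706. Over the 8900 genes of the base the order differed, with 0.838 for female heart, 0.684 for female head and 0.639 for male head. The values were then 0.594 for testes, 0.593 for both male heart and ovary, 0.429 for GI tract and 0.418 for intestine. A gene enters the base by its level in lung, male heart, intestine or GI tract, and in no other library. Genes high in male heart or gut but low in lung thus enter and can lower rho for those tissues. Part of the changed order is fixed by this filter. Lung and female heart also share the oocyte-type transcripts. These correlations run across genes, share the lung library and are given as a description. In both sets of genes lung was nearer in rank to both hearts than to either gut tissue, though in the base the filter touches this.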

How the data were processed

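Messenger RNA of 9 adult tissues was sequenced after total RNA extraction with Qiagen kits and Kapa library preparation, per the labels' protocols. Per the submitters' processing notes, the tools included RSEM 1.3 and deepTools. No aligner, genome build or annotation is named (not given in the sources used here). The authors deposited 1 table of expected counts per gene, rounded to whole numbers, and 1 table of TPM. The row that collects reads without a gene name was left out (0.01125% to 1.777% of counts). Of 30330 genes, 15165 carry a symbol, and 14552 symbols match RefSeq (assembly UCB_Xtro_10.0, used for names only).

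From the TPM, genes were set aside by the ovary rule, with a minimum of 1 TPM in ovary added to it, and a gene was called higher or lower at 4-fold with at least 10 TPM on the higher side. Ratios used a floor of 3 counts per library. Because the ovary rule reads the intestine level, it touches the comparison with intestine. With 1 library a side no test was run. Alternatives were 2-fold and 8-fold, a 1 TPM minimum, a pseudocount of 1, other forms of the ovary rule, rescaled TPM, and TMM-scaled counts (edgeR 4.0.16, R 4.3.3). Intervals are 95% (Clopper-Pearson for ratios of counts, Poisson for counts, Wilson for shares). The calling steps were tested on simulated data, which checks the computation and not the tissue differences. Other steps used Python 3.11.15.

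Named genes were the 25 most abundant in lung among those higher than in all 3 others, the 10 of these with the largest ratio at 50 TPM or more, the 10 lower genes with the highest minimum level in the 3 others, the 10 most abundant of each shared class, the 5 most abundant of each list, and sftpc, sftpb and cav1. The lists hold 744 symbols in 23 lists, of which 84 were not found. The members and lists were chosen with earlier results of these data known. 1 of the named genes is not reported here.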

Additional observations from a re-analysis of the deposited data

Results flagged for a closer look

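The surfactant protein C gene sftpc was detected outside the compared tissues. Male testes held 21.52 TPM of sftpc, which is 0.143% of the lung level and above the limit that a count of 0 allows. The same gene was at 3.25 TPM in female head, 1.19 TPM in male head, 0.11 TPM in female heart and 0.10 TPM in ovary. For the 47 genes of at least 100 TPM among the 221 higher in lung and 4-fold above female heart, the median level in testes was 5.06% of the lung level.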

How the results depend on the processing

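With a 2-fold rule, 3547 genes were higher and 78 lower in lung than in all 3 others, 4711 higher and 844 lower than in male heart, 5018 and 1261 against intestine, and 5057 higher than in GI tract. With an 8-fold rule, 513 were higher and 16 lower than in all 3, 408 were shared with male heart, and 1223, 1248 and 1180 were higher than in male heart, intestine and GI tract. A minimum of 1 TPM gave 101 lower than all 3, 1162 shared with gut, 4210 higher and 945 lower than in male heart, 4396 and 1774 against intestine, and 4490 and 1749 against GI tract. With no gene set aside, 2992 were higher than in all 3, and 4239, 4752 and 4746 higher than in male heart, intestine and GI tract. TMM scaling gave 421 higher and 81 lower than in all 3, 229 shared with male heart, 1311 higher and 796 lower than in male heart, 1016 and 1359 against intestine, and 831 and 1363 against GI tract. The female heart condition, chosen after seeing the data, gave 221 higher than in all 3, 183 shared with male heart, 144 shared with gut, and 448, 466 and 483 higher than in male heart, intestine and GI tract; with TMM scaling as well these were 96, 81, 96, 245, 212 and 217. A pseudocount of 1 with no minimum level, TPM rescaled over the kept genes, and both other forms of the ovary rule left each of the 10 counts within 1.5 times. The cause of these shifts was not tested. The gene dvl2 was 14.03-fold over its highest comparator on TPM, but with TMM-scaled counts its log2 ratio was -0.002 to whichever of the 3 was then highest, about equal, and 0.21 to male heart.

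No paired analysis was possible because each tissue and sex has 1 library, and no replicate can be left out for the same reason. A gene near 10 TPM in lung rests on a median of 447 counts. Single libraries, bulk tissue, the unknown number of animals and the oocyte-type transcripts of lung limit these counts.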

Other observations

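Many genes that marked the lung among the 4 tissues were also present in the heads. Of the 221 genes higher in lung than in the 3 others and female heart, 87 were at least 4-fold above each of the other 5 libraries as well. For the 47 of at least 100 TPM in lung, the median level was 15.8% of lung in male head and 11.7% in female head. It was 6.85% in male heart, 5.06% in male testes and 0.145% in ovary. The sodium channel gene scnn1a was at 155 TPM in lung but at 167 TPM in female head and 230.27 TPM in male head, whereas scnn1b was at 28.8 and 35.0 TPM there against 115 TPM in lung. The water channel gene aqp1, at 526 TPM in lung, was at 163 TPM in male testes and 61.7 and 74.7 TPM in the female and male heads.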
